A study of Mus musculus with 6 samples.

Results

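The costimulatory members of the TNF superfamily examined here were 5 receptor and ligand pairs: OX40 and OX40L (*Tnfrsf4* and *Tnfsf4*), 4-1BB and 4-1BBL (*Tnfrsf9* and *Tnfsf9*), GITR and GITRL (*Tnfrsf18* and *Tnfsf18*), CD27 and CD70 (*Cd27* and *Cd70*), and CD40 and CD40L (*Cd40* and *Cd40lg*). They were taken from the table by gene symbol, and all 10 were found among the 21358 entries of the expression table. RNA was sequenced from whole B16-F10 tumors, a gp100-positive mouse melanoma line grown in C57BL/6 mice, taken on day 12 after adoptive cell transfer (ACT) from 3 mice given ACT + IL-2 and 3 mice given ACT + NKTR-214. All mice were first lymphodepleted by total body irradiation and then, at a tumor volume of at least 150 mm3, received splenocytes of pmel-1 mice, whose transgenic T cell receptor recognizes gp100, after activation of those cells with gp100 peptide in culture. IL-2 was injected into the peritoneum on 3 consecutive days of each 9-day cycle at 0.4 mg/kg. NKTR-214, which is IL-2 carrying releasable polyethylene glycol chains, was given intravenously at 0.8 mg/kg 1 time per cycle. Agent, dose, route and schedule therefore differed together between the groups. The second cycle began on day 9, so the last IL-2 injection fell closer to day 12 than the last NKTR-214 dose. Both groups carried transferred T cells and neither was untreated, transferred and host T cells are pooled in these values, and the comparison made was of receptor and ligand transcripts between the 2 treatments.

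OX40, 4-1BB and GITR are low on resting conventional T cells and are induced when the T cell receptor is engaged, whereas CD27 is already present on naive T cells, and regulatory T cells carry OX40 and GITR constitutively. Their ligands are displayed mainly by activated antigen-presenting cells, and CD70 also appears briefly on activated lymphocytes. CD40 works in the opposite orientation, with the receptor on dendritic cells, macrophages and B cells and the ligand mainly on activated CD4 T cells. All 5 receptors lack enzymatic activity of their own and recruit TRAF adaptor proteins, which connect them to the canonical and noncanonical NF-kB pathways and to the survival of T cells or, for CD40, to the licensing of antigen-presenting cells.

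The deposited values were FPKM, reads scaled to gene length and to the depth of the library, and the whole reads behind them placed the 6 libraries at about 20900000 to 24700000 counted reads each (estimated, relative depth 0.877 to 1.035). The absolute depth rests on 160 genes that gave a common total, of 1124 solved. The FPKM of all entries summed to 176420 in ACT + IL-2 replicate 2 and to 217581 to 246514 in the other tumors. That replicate also had the lowest receptor and ligand sums given below. In the label check, 6 melanocyte genes summed to 5314 to 6812 FPKM in ACT + IL-2 tumors and 2644 to 3725 FPKM in ACT + NKTR-214 tumors, with 4 of the 6 lower in the latter. T cell markers (*Cd3d*, *Cd3e*, *Cd3g*, *Cd2*, *Cd247*, *Lck*) summed to 11.8 to 24.9 FPKM against 126 to 264 FPKM, and 6 of 6 were higher with NKTR-214. Of the other lists, 2 of 2 CD8 genes (3.31 to 8.21 against 45.1 to 99.6 FPKM), *Cd4* (0.212 to 0.758 against 0.952 to 1.38 FPKM), 2 of 4 regulatory T cell genes (3.73 to 4.93 against 23.5 to 29.7 FPKM, *Il2ra* and *Ccr8* but not *Foxp3* or *Ikzf2*), 2 of 3 NK cell genes (1.40 to 3.68 against 11.4 to 25.9 FPKM), 5 of 6 dendritic cell genes (7.81 to 12.7 against 20.5 to 35.6 FPKM) and 6 of 6 macrophage and monocyte genes (70.5 to 173 against 276 to 435 FPKM) were higher with NKTR-214. Among B cell genes, *Cd22* alone of 3 tested was higher and *Ms4a1* was too low to test, and 1 of 5 endothelial genes was higher. After quantile normalization the dendritic cell genes *Flt3*, *Xcr1* and *Ccr7* no longer passed (limma adjusted p = 0.0714, 0.0529 and 0.0591), while *Itgax* and *Clec9a* did. The macrophage gene *Adgre1* did not pass after it (0.0761) or after scaling to the 75th percentile (0.0915). In ACT + NKTR-214 tumors most of the regulatory T cell sum was *Il2ra*, which activated T cells also carry. In whole tumors, fewer cells of a type and less RNA per cell cannot be told apart, and the part of these marker changes in the results below was not tested except where a ratio to a marker is given.

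Receptor transcripts other than *Cd40* were higher with NKTR-214, while 4 of 5 ligand genes stayed below 1 FPKM in every tumor. The 5 receptors together summed to 29.7, 17.6 and 27.7 FPKM in the 3 ACT + IL-2 tumors (replicates 1 to 3) and to 96.2, 121 and 85.7 FPKM in the 3 ACT + NKTR-214 tumors. The 5 ligands together summed to 10, 7.01 and 10.7 FPKM and to 10.3, 11.8 and 9.64 FPKM. The receptor sums did not overlap between treatments and the ligand sums did. Of the 10 members, 6 were higher with NKTR-214 and 0 were lower at an adjusted p below 0.05 (limma on log2(FPKM + 1), Benjamini-Hochberg over 14172 genes), against 20.7% of all genes tested higher and 8.28% lower. Unadjusted p-values were below 0.05 for 9 of 10 members, of which *Tnfsf18* ran lower, and for 5580 of all 14172 genes. By role, 4 of 5 receptors (median log2 fold change 2.31) and 2 of 5 ligands (median 0.23) were higher, beside a median of 0.05 over all genes. This contrast of roles depended on the 1 added to every FPKM, which compresses ligands below 1 FPKM: with 0.1 added, 4 receptors (median 2.89) and 3 ligands (median 1.28) were higher and 1 ligand lower, and the median ratio of group means was 8.33 for receptors and 7.07 for ligands. With the own variance of each gene 2 members stayed called, *Tnfrsf4* and *Tnfrsf18*, beside 101 of all 14172 genes higher and 27 lower. The 3 tumors of one treatment did not overlap the 3 of the other for 8 of 10 members, a separation shown by 42.4% of all genes. The split of calls over all genes, 2940 higher and 1173 lower, depended on scaling: it was 3259 and 3709 after scaling to the 75th percentile and 2669 and 4549 after quantile normalization, where the overall median log2 fold change shifted by -0.075 and -0.145, while 6 members stayed higher under either.

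**Figure D1:**
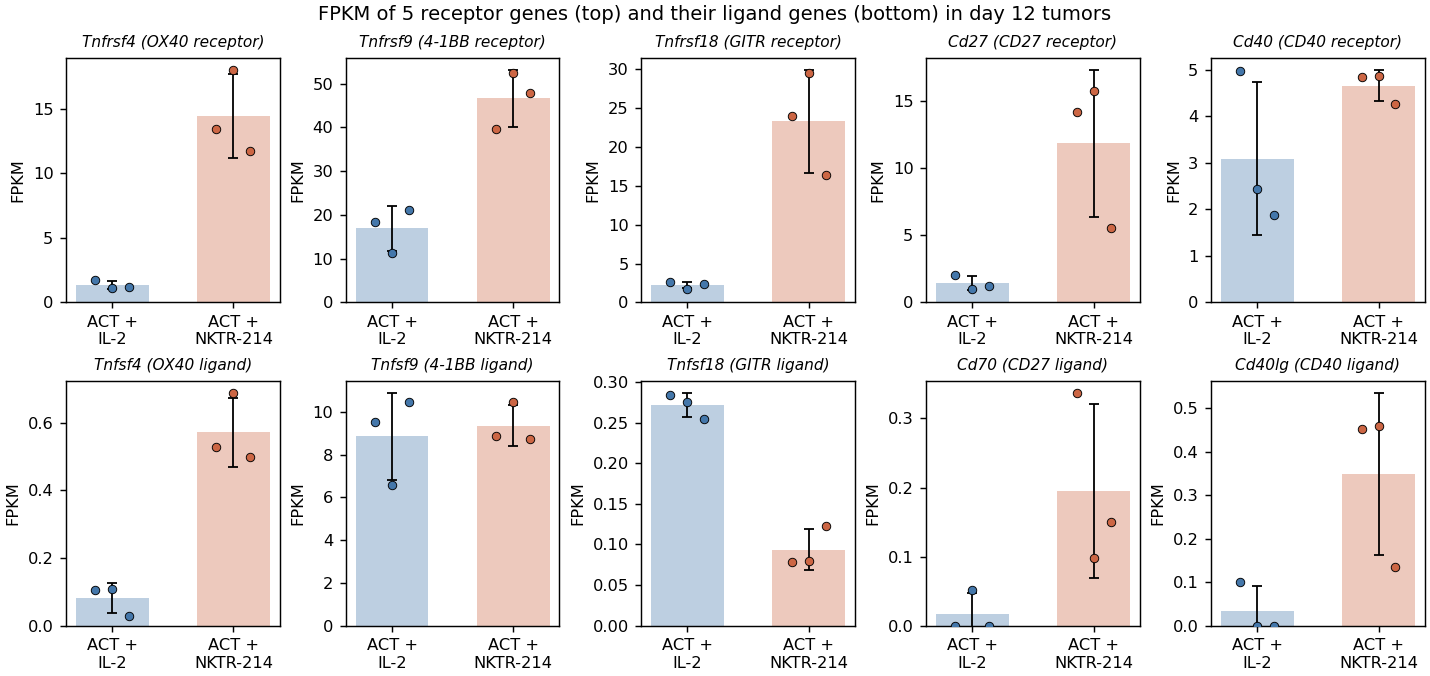
FPKM (vertical axes, each starting at 0) of the 5 receptor genes in the top row and their ligand genes in the bottom row, for ACT + IL-2 and ACT + NKTR-214 tumors; points are tumors, bars the mean and lines the SD of 3. *Tnfrsf4*, *Tnfrsf18*, *Tnfrsf9* and *Cd27* separate completely by treatment, *Tnfsf9* overlaps at means of 8.86 and 9.35 FPKM, and *Tnfsf18* is the only member that lies lower in all 3 ACT + NKTR-214 tumors.

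*Tnfrsf4* and *Tnfrsf18*, which encode OX40 and GITR, showed the largest changes of the members on the log2 scale. The genes are neighbors on chromosome 4 of GRCm38, at chr4:156013843-156016612 and chr4:156026164-156028895 on the plus strand, 9.6 kb apart. Their ligand genes are also neighbors, *Tnfsf4* at chr1:161395409-161418410 and *Tnfsf18* at chr1:161494655-161505290, 76.2 kb apart on the plus strand, and *Tnfsf9* at chr17:57105325-57107757 lies 38.2 kb from *Cd70* at chr17:57145997-57149777. *Tnfrsf9*, at chr4:150914562-150946102, is on the same chromosome as the OX40 and GITR genes but 5067.7 kb from *Tnfrsf4*. The remaining members stand alone: *Cd27* at chr6:125232622-125237010 on the minus strand, *Cd40* at chr2:165055627-165072948 and *Cd40lg* at chrX:57212143-57224042 on the plus strand.

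Sequences upstream of annotated starts are shown for the 3 receptors of chromosome 4 and for *Tnfsf18*. These were the receptors called higher that share a chromosome and the only ligand gene with lower values in every ACT + NKTR-214 tumor. Each sequence is the 250 bases before a RefSeq transcript start on GRCm38.p6, plus strand, with capitals marking matches on either strand to GGGANNNNCC, the general letters of an NF-kB site, or TTCNNNGAA, the general letters of a GAS element of the kind STAT5, the transcription factor downstream of the IL-2 receptor, can bind. The windows are chr4:156013445-156013694 for *Tnfrsf4*, chr4:156026072-156026321 for *Tnfrsf18*, chr4:150927749-150927998 for the downstream of the 2 listed starts of *Tnfrsf9*, and chr1:161494407-161494656 for *Tnfsf18*.
Tnfrsf4: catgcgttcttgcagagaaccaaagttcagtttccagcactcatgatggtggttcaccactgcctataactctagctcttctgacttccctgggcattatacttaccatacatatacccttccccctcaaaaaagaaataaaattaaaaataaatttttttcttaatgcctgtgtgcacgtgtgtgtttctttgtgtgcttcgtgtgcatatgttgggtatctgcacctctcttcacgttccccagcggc
Tnfrsf18: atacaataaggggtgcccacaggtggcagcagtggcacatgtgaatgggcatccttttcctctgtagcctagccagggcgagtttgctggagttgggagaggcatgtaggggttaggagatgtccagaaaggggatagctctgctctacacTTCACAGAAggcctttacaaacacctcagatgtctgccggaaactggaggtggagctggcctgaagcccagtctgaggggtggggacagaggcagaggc
Tnfrsf9: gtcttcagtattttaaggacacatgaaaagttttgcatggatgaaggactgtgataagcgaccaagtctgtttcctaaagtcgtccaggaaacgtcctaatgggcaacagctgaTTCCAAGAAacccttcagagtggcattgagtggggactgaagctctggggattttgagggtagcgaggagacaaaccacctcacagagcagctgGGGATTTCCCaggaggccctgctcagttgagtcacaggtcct
Tnfsf18: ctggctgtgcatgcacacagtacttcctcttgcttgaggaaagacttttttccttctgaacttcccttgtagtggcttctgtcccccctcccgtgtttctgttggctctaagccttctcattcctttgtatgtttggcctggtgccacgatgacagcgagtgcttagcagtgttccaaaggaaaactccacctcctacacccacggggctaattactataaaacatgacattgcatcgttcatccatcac
The *Tnfrsf9* window held 1 match to each motif, GGGATTTCCC beginning 42 bases before the start and TTCCAAGAA beginning 136 bases before it. The *Tnfrsf18* window held 1 match, TTCACAGAA, beginning 99 bases before the start. No match to these letters lay in the windows of *Tnfrsf4* and *Tnfsf18*, in the upstream start of *Tnfrsf9* or in the *Cd27* window, chr6:125237028-125237277. Matches of this kind are common, being present in 17.6% (NF-kB) and 7.02% (GAS) of 32851 promoter windows of the same length, and the 2 motifs have different letters and did not overlap in these windows. By the GENCODE positions above, the *Tnfrsf9* window lies wholly inside the gene, and most of the *Tnfrsf18* window with its match lies inside that gene. No binding was measured. *Tnfsf4*, *Tnfsf9*, *Cd70*, *Cd40* and *Cd40lg* were not searched here.

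OX40 sustains the survival and memory formation of activated T cells. *Tnfrsf4* was at 1.74, 1.13 and 1.20 FPKM in ACT + IL-2 tumors and at 13.5, 18.0 and 11.7 FPKM in ACT + NKTR-214 tumors. Every ACT + NKTR-214 tumor was above every ACT + IL-2 tumor. The means were 1.36 ± 0.332 and 14.4 ± 3.25 FPKM (SD, n = 3), a 10.6-fold ratio, and the log2 fold change was 2.70 (SE 0.18, limma adjusted p = 5.82e-08). Its ligand *Tnfsf4* was at 0.104, 0.109 and 0.0297 FPKM and at 0.529, 0.689 and 0.498 FPKM, values that rest on 4, 4 and 1 reads and 21, 27 and 19 reads. Again the groups did not overlap, at means of 0.0809 ± 0.0444 and 0.572 ± 0.103 FPKM (SD, n = 3), and the ligand was called higher (log2 fold change 0.54, SE 0.09, limma adjusted p = 0.000299). The log2 fold change understates ligands at such low values, because 1 is added to every FPKM; the ratio of the means was 7.07, and with 0.1 added the log2 fold change was 1.92.

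GITR costimulates effector T cells and marks regulatory T cells. *Tnfrsf18* was at 2.62, 1.77 and 2.32 FPKM with IL-2 and at 24.0, 29.6 and 16.4 FPKM with NKTR-214. The groups lay far apart relative to their spread, at 2.24 ± 0.427 and 23.3 ± 6.63 FPKM (SD, n = 3), a 10.4-fold ratio with a log2 fold change of 2.88 (SE 0.19, limma adjusted p = 6.76e-08). *Tnfsf18* ran the other way, at 0.285, 0.276 and 0.255 FPKM with IL-2 and 0.0786, 0.0796 and 0.123 FPKM with NKTR-214. These values rest on 14, 13 and 11 reads against 4, 4 and 6 reads, so the ACT + NKTR-214 tumors together held 14 reads of GITRL and the ACT + IL-2 tumors 38. The difference missed the threshold (log2 fold change -0.22, SE 0.08, limma adjusted p = 0.053, 95% interval -0.39 to -0.05). It passed as lower in 4 of 13 alternatives, among them the smaller added value of 0.1 (log2 fold change -0.95, limma adjusted p = 0.0308). In the annotation, 27.2% of the exon bases of *Tnfrsf18* also lie in an antisense transcript, *Gm16008*, which has no entry in the deposited table, and the strand setting of the counting was not given in the sources used here.

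4-1BB, which marks recently stimulated CD8 T cells and promotes their expansion, had the highest level of the 10 members under both treatments. *Tnfrsf9* was at 18.4, 11.2 and 21.1 FPKM in ACT + IL-2 tumors and at 39.6, 52.5 and 47.8 FPKM in ACT + NKTR-214 tumors. The lowest ACT + NKTR-214 tumor exceeded the highest ACT + IL-2 tumor, and the means of 16.9 ± 5.12 and 46.6 ± 6.51 FPKM (SD, n = 3) differed 2.76-fold (log2 fold change 1.45, SE 0.20, limma adjusted p = 4.67e-05). Its ligand did not follow: *Tnfsf9* was at 9.55, 6.57 and 10.5 FPKM with IL-2 and 8.86, 10.4 and 8.73 FPKM with NKTR-214. The tumors of both treatments were intermixed, at means of 8.86 ± 2.03 and 9.35 ± 0.953 FPKM (SD, n = 3), and the log2 fold change was 0.09 (95% interval -0.28 to 0.45, limma adjusted p = 0.745), an interval that leaves room for a change of moderate size in either direction. *Tnfsf9* was measured on 185 to 313 reads per tumor, and 14.9% of its exon bases also lie in the antisense transcript *Gm11110*. Its sign turned with the scaling (-0.01 and -0.02) and without ACT + IL-2 replicate 2 (-0.09).

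CD27 supports T cell priming and the maintenance of central memory cells, and is shed or lost from fully differentiated effector cells. *Cd27* was at 2.02, 1.02 and 1.21 FPKM with IL-2 and at 14.2, 15.7 and 5.55 FPKM with NKTR-214. All 3 ACT + NKTR-214 tumors were above the ACT + IL-2 range, but replicate 3 was well below the other two, and that tumor was also lowest of its group in the mean of 4 pan-T cell genes (*Cd3d*, *Cd3e*, *Cd3g* and *Cd2*), at 23.9 FPKM beside 45.7 and 51.8 FPKM. The group means were 1.42 ± 0.529 and 11.8 ± 5.48 FPKM (SD, n = 3), an 8.33-fold ratio (log2 fold change 2.31, SE 0.28, limma adjusted p = 1.29e-05). Without that tumor the log2 fold change was 2.74. Its ligand *Cd70* was detected by 0, 1 and 0 reads in ACT + IL-2 tumors and 7, 2 and 3 reads in ACT + NKTR-214 tumors. Per unit of depth this was a ratio of 11.2 (exact 95% interval 1.65 to 477, counting error only), and the test across genes did not pass (log2 fold change 0.23, SE 0.09, limma adjusted p = 0.0674). With 0.1 in place of 1 added to each FPKM, *Cd70* passed (log2 fold change 1.28, limma adjusted p = 0.0209).

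CD40 licenses dendritic cells for T cell priming. *Cd40* was at 4.97, 2.43 and 1.87 FPKM with IL-2 and 4.85, 4.86 and 4.27 FPKM with NKTR-214. *Cd40* was the only receptor whose groups overlapped, and the overlap came from ACT + IL-2 replicate 1 alone, which lay above all 3 ACT + NKTR-214 tumors. The means were 3.09 ± 1.65 and 4.66 ± 0.340 FPKM (SD, n = 3), and the log2 fold change of 0.54 (SE 0.22, limma adjusted p = 0.0752) did not pass. Without ACT + IL-2 replicate 1 it was 0.85 and passed (limma adjusted p = 8.41e-05), in a fit where every gene took the variance of genes at its level, while with the own variance of each gene over all 6 tumors the adjusted p was 0.311. It also passed in 3 further alternatives, with a minimum mean FPKM of 1 (limma adjusted p = 0.031), with a replicate block (0.0226) and without ACT + NKTR-214 replicate 3 (0.0108). Those 3 fits took more of the variance from other genes than the main fit did. Their prior degrees of freedom were 23.9, 29.1 and infinite, beside 11.4. ACT + IL-2 replicate 1 was also the highest of its group in the summed macrophage and monocyte genes (173 FPKM) and in the summed T cell genes (24.9 FPKM), though both of these sums lay below every ACT + NKTR-214 tumor. *Cd40lg* was at 0.101, 0 and 0 FPKM and at 0.453, 0.459 and 0.135 FPKM, from 3, 0 and 0 reads and 14, 14 and 4 reads. It was called higher (log2 fold change 0.38, SE 0.10, limma adjusted p = 0.0117), with a depth-scaled ratio of 9.91 (exact 95% interval 3.10 to 50.6, counting error only). This call did not hold without ACT + IL-2 replicate 2 (limma adjusted p = 0.088) or without the dependence of variance on expression level (0.0638).

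**Figure D2:**
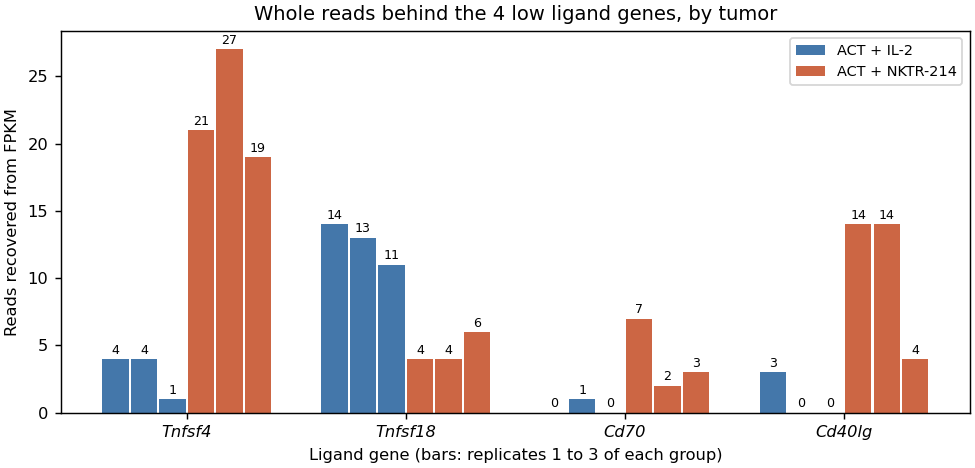
Whole reads recovered from FPKM (vertical axis) for the 4 ligand genes of low level, with 1 bar per tumor, replicates 1 to 3 of ACT + IL-2 then of ACT + NKTR-214. *Tnfsf4* has at most 4 reads per ACT + IL-2 tumor and at least 19 per ACT + NKTR-214 tumor, *Tnfsf18* falls from 11 to 14 reads to 4 to 6, and *Cd70* and *Cd40lg* are at 0 reads in 2 of 3 ACT + IL-2 tumors.

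Levels per kilobase put the members in a different order under each treatment. With IL-2, *Tnfrsf9* was first and *Tnfsf9* second, followed by *Cd40*, *Tnfrsf18*, *Cd27* and *Tnfrsf4*, and the ranges of *Cd40* and *Tnfrsf18*, of *Tnfrsf18* and *Cd27*, and of *Cd27* and *Tnfrsf4* overlapped. With NKTR-214 the order was *Tnfrsf9*, *Tnfrsf18*, *Tnfrsf4*, *Cd27*, *Tnfsf9* and *Cd40*. Here *Tnfrsf9* stood clear of *Tnfrsf18*, *Tnfsf9* stood clear of *Cd40*, and the ranges of each of the neighboring pairs between *Tnfrsf18* and *Tnfsf9* overlapped. Within tumors, *Tnfrsf18* was above *Cd27* in 3 of 3 ACT + IL-2 tumors and above *Tnfrsf4* in 3 of 3 ACT + NKTR-214 tumors, and the other overlapping neighbors changed order between tumors. *Tnfsf4*, *Tnfsf18*, *Cd70* and *Cd40lg* stayed below 1 FPKM in every tumor. As a share of the receptor FPKM, *Tnfrsf9* made up 61.9, 63.8 and 76.2% in ACT + IL-2 tumors and 41.2, 43.5 and 55.8% in ACT + NKTR-214 tumors. *Tnfrsf18* went from 8.38 to 10.1% of the receptor sum to 19.1 to 25%, and *Tnfrsf4* from 4.32 to 6.43% to 13.7 to 14.9%, with no overlap in either case. On the ligand side *Tnfsf9* alone supplied 93.8 to 97.3% of the summed FPKM with IL-2 and 86.4 to 90.6% with NKTR-214.

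Receptor and ligand were then compared within each tumor, as the log2(FPKM + 1) of the receptor minus that of its ligand. For OX40 this difference was 1.31, 0.94 and 1.09 in ACT + IL-2 tumors and 3.24, 3.49 and 3.09 in ACT + NKTR-214 tumors. For 4-1BB it was 0.88, 0.69 and 0.95 against 2.04, 2.22 and 2.33, for GITR 1.49, 1.12 and 1.40 against 4.54, 4.82 and 3.95, and for CD27 1.59, 0.94 and 1.15 against 3.51, 3.93 and 2.51. On this scale the difference was larger in every ACT + NKTR-214 tumor for these 4 pairs, by 2.16, 1.36, 3.10 and 2.09 on average, each at the smallest p that 3 against 3 tumors allow (two-sided exact permutation p = 0.1, Benjamini-Hochberg 0.12 over 5 pairs), so none could pass 0.05. For CD40 the values were 2.44, 1.78 and 1.52 against 2.01, 2.01 and 2.22, which overlapped at an average difference of 0.16 (exact permutation p = 0.5). With 0.1 added the CD40 difference turned to -1.03 without overlap (exact permutation p = 0.1), and the ratio of group means was 10.4 for *Cd40lg* and 1.51 for *Cd40*.

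The added value of 1 mattered for pairs with a rare ligand. For CD27 the ratio of group means was 8.33 for the receptor and, from 1 read with IL-2, 11.3 for *Cd70*, so the larger difference on the log2(FPKM + 1) scale does not show that the receptor changed by a larger factor. Ratios of FPKM were therefore formed for the 3 pairs whose ligand had reads in all 6 tumors. *Tnfrsf4* over *Tnfsf4* was 16.6, 10.4 and 40.3 with IL-2 and 25.4, 26.2 and 23.6 with NKTR-214. The groups overlapped, but only through ACT + IL-2 replicate 3, where *Tnfsf4* rests on 1 read; without that tumor the ACT + IL-2 mean moved from 22.4 to 13.5 and the groups did not overlap. *Tnfrsf9* over *Tnfsf9* was 1.93, 1.71 and 2.02 against 4.47, 5.02 and 5.47, and *Tnfrsf18* over *Tnfsf18* was 9.19, 6.44 and 9.10 against 306, 371 and 133. The 4-1BB and GITR pairs thus separated by treatment on either scale, with mean ratios of 1.88 and 4.99, and of 8.24 and 270.

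**Figure D3:**
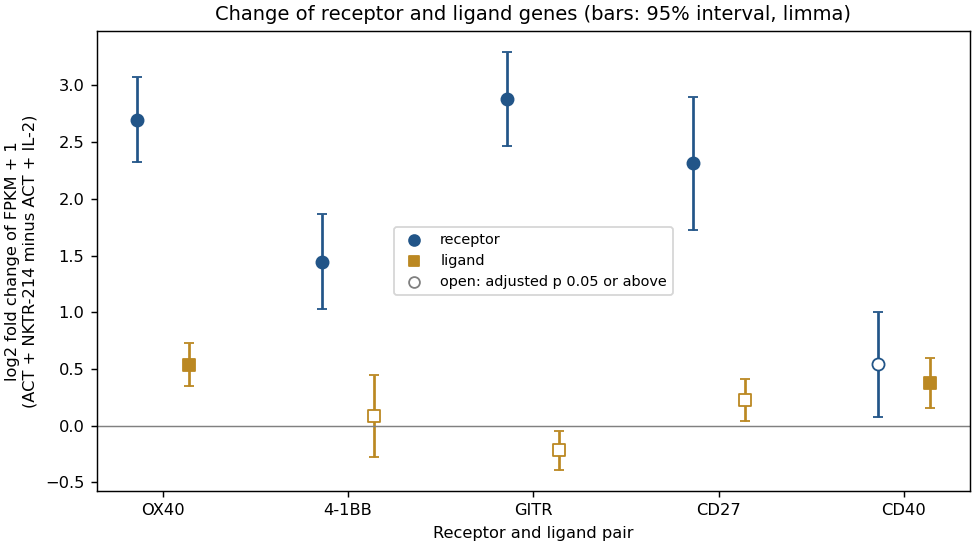
The log2 fold change of FPKM + 1, ACT + NKTR-214 minus ACT + IL-2 (vertical axis), of the receptor (circles) and ligand (squares) of each pair (horizontal axis), with 95% intervals from limma; open symbols have an adjusted p of 0.05 or above. On this scale, which compresses ligands below 1 FPKM, the receptor lies above its ligand for OX40, 4-1BB, GITR and CD27, and both members of the CD40 pair lie between 0.38 and 0.54.

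Because T cell transcripts rose with NKTR-214, member levels were set beside the 4 pan-T cell genes of the same tumor, whose mean was 4.26, 1.67 and 1.71 FPKM in ACT + IL-2 tumors and 45.7, 51.8 and 23.9 FPKM in ACT + NKTR-214 tumors. *Tnfrsf4* was 0.407, 0.678 and 0.700 of that mean with IL-2 and 0.294, 0.348 and 0.491 with NKTR-214. *Tnfrsf18* was 0.614, 1.06 and 1.36 of it against 0.526, 0.571 and 0.684. For OX40 and GITR the groups overlapped on this ratio, so the higher FPKM of these receptors was not accompanied by a higher level per T cell marker. *Cd27* was at 0.474, 0.614 and 0.709 against 0.310, 0.303 and 0.232, and *Tnfrsf9* at 4.32, 6.72 and 12.3 against 0.866, 1.01 and 2.00. Both were lower per T cell marker in all 3 ACT + NKTR-214 tumors, *Tnfrsf9* by the wider margin (means of 7.80 and 1.29). The ratio was also lower without overlap for *Cd40* (means of 1.24 and 0.126), *Tnfsf9* (4.10 and 0.254) and *Tnfsf18* (0.127 and 0.00279), and the groups overlapped for *Tnfsf4* (0.0357 and 0.0152), *Cd40lg* (0.00786 and 0.00813) and *Cd70* (0.0104 and 0.00517). The denominator itself went from 2.55 to 40.5 FPKM on average, so a member that rose less than the T cell genes, *Tnfrsf9* and *Cd27* included, had a lower ratio by construction, and the ratio says nothing of which cells held the transcript. Within ACT + IL-2 tumors *Tnfrsf9* did not follow the T cell genes, being highest in replicate 3 (21.1 FPKM, T cell mean 1.71) and lower in replicate 1 (18.4 FPKM, T cell mean 4.26). On the log2(FPKM + 1) scale, member minus pan-T cell mean was lower with NKTR-214 for all 10 members, from -0.66 for *Tnfrsf18*, -0.84 for *Tnfrsf4*, -1.23 for *Cd27* and -2.09 for *Tnfrsf9* to -3.76 for *Tnfsf18*, with an exact permutation p of 0.1 for 9 of them (Benjamini-Hochberg 0.11) and of 0.2 for *Tnfrsf18*, whose groups overlapped. For the ligands below 1 FPKM this scale shows mostly the change of the T cell genes, since the added 1 holds the ligand near 0.

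**Figure D4:**
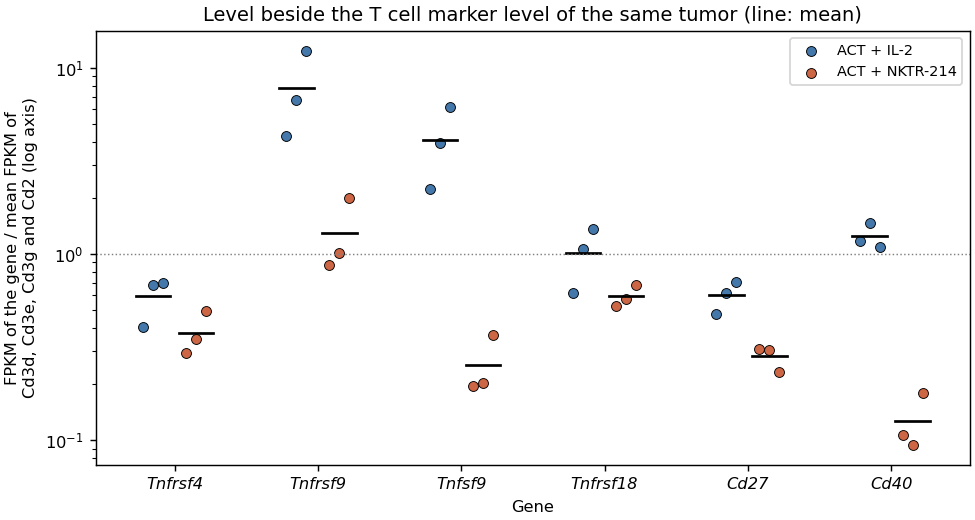
FPKM of 6 members divided by the mean FPKM of *Cd3d*, *Cd3e*, *Cd3g* and *Cd2* in the same tumor (vertical log axis), by gene (horizontal axis), with 3 tumors per treatment as points and the mean as a line. *Tnfrsf4* and *Tnfrsf18* overlap between treatments, while *Tnfrsf9* and *Cd27* are lower in each ACT + NKTR-214 tumor; *Cd40* and *Tnfsf9* are lower as the T cell genes in the denominator rose from 2.55 to 40.5 FPKM.

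Regulatory T cells carry OX40 and GITR constitutively, so the 3 inducible receptors were also set beside *Foxp3*, the lineage factor of those cells. *Foxp3* was at 2.21 ± 0.219 FPKM with IL-2 and 2.21 ± 0.221 FPKM with NKTR-214 (SD, n = 3; log2 fold change -0.00, 95% interval -0.29 to 0.29, limma adjusted p = 0.996), although quantile normalization called it lower (-0.29, limma adjusted p = 0.0303). *Tnfrsf18* over *Foxp3* was 1.06, 0.836 and 1.13 in ACT + IL-2 tumors and 11, 12.1 and 8.17 in ACT + NKTR-214 tumors. *Tnfrsf4* over *Foxp3* was 0.705, 0.533 and 0.582 against 6.16, 7.38 and 5.86. *Tnfrsf9* over *Foxp3* was 7.47, 5.29 and 10.3 against 18.1, 21.5 and 23.9. All 3 ratios were higher in every ACT + NKTR-214 tumor, which with *Foxp3* at the same mean in both groups repeats the rise of the receptors. *Foxp3* lay above *Cd4* in every tumor (*Cd4* means of 0.426 and 1.20 FPKM). Whether *Foxp3* followed the number of regulatory T cells here was not tested. *Foxp3* is 1 of 4 genes in the list, and *Ccr8*, a chemokine receptor of tumor regulatory T cells, went from 0.139 to 0.760 FPKM on average (log2 fold change 0.59, limma adjusted p = 0.0068). *Il2ra* (CD25), the alpha subunit that completes the high-affinity receptor for IL-2 on regulatory and activated T cells, went from 0.655 to 21.4 FPKM on average (log2 fold change 3.76, limma adjusted p = 7.88e-10).

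Other ligands and receptors of the TNF family were examined next. Of 14 listed ligands and receptors 13 were tested, and 11 were higher and 0 lower with NKTR-214, with a median log2 fold change of 0.94, beside 20.7% and 8.28% of all genes. With the own variance of each gene 2 of the 13 were higher, beside 101 of all 14172 genes. On the log2(FPKM + 1) scale the largest change was in *Tnfsf8*, CD30 ligand, at 0.203 ± 0.142 and 4.88 ± 1.81 FPKM (SD, n = 3, log2 fold change 2.25, limma adjusted p = 4.97e-07). Its receptor *Tnfrsf8* was also higher (0.76, limma adjusted p = 0.000151). *Tnfrsf11b*, which encodes osteoprotegerin, the soluble decoy receptor of RANKL, went from 12.4 ± 2.52 to 45.6 ± 6.87 FPKM (SD, n = 3; log2 fold change 1.80), and *Tnfsf11*, RANKL itself, from 0.168 to 2.01 FPKM (1.36, limma adjusted p = 1.52e-06). *Tnfsf14*, LIGHT, rose from 0.447 to 3.39 FPKM (1.59) and its receptor *Tnfrsf14*, HVEM, from 11.2 to 21.8 FPKM (0.92, limma adjusted p = 0.000446). *Tnfsf13*, APRIL, rose from 1.90 to 6.80 FPKM (1.42, limma adjusted p = 0.000121). The DR3 pair did not pass, with *Tnfrsf25* at -0.08 (limma adjusted p = 0.616, called lower after quantile normalization) and *Tnfsf15* at 0.18 (0.126).

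Signaling genes downstream of these receptors were also tested. Of 24 TRAF and NF-kB genes tested, 14 were higher and 0 lower, with a median log2 fold change of 0.66, beside the same 20.7% and 8.28% of all genes. With the own variance of each gene (limma without moderation) 0 of the 24 were called, beside 101 of all 14172 genes higher and 27 lower. In that fit 14 of the 24 had an unadjusted p below 0.05. *Traf1*, an inducible adaptor of OX40, 4-1BB and CD40 signaling that is itself an NF-kB target, changed most, from 1.17 ± 0.591 to 6.73 ± 2.11 FPKM (SD, n = 3; log2 fold change 1.83, limma adjusted p = 1.28e-05). The feedback inhibitors *Nfkbia* (1.65) and *Tnfaip3* (1.62), the ubiquitin ligase gene *Birc3* (1.34) and the survival gene *Bcl2l1* (0.95) were higher too, as were all 5 NF-kB subunit genes, by 0.62 for *Rela* to 0.88 for *Relb*. Among the adaptors, *Traf5* was higher (1.07, limma adjusted p = 0.000185). *Traf2* (0.20, limma adjusted p = 0.366), *Traf3* (-0.17, 0.427) and *Traf6* (0.17, 0.452) did not pass, nor did the kinase genes *Chuk*, *Ikbkb*, *Ikbkg* and *Map3k7*, whereas *Map3k14*, the NIK kinase of the noncanonical pathway, was higher (0.54, limma adjusted p = 0.0214). With either other scaling *Traf3*, *Map3k7* and *Siva1* were called lower. *Nfkbia* and *Tnfaip3* respond to many stimuli in many cells of a tumor, and macrophage and dendritic cell genes moved with them as given above.

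**Figure D5:**
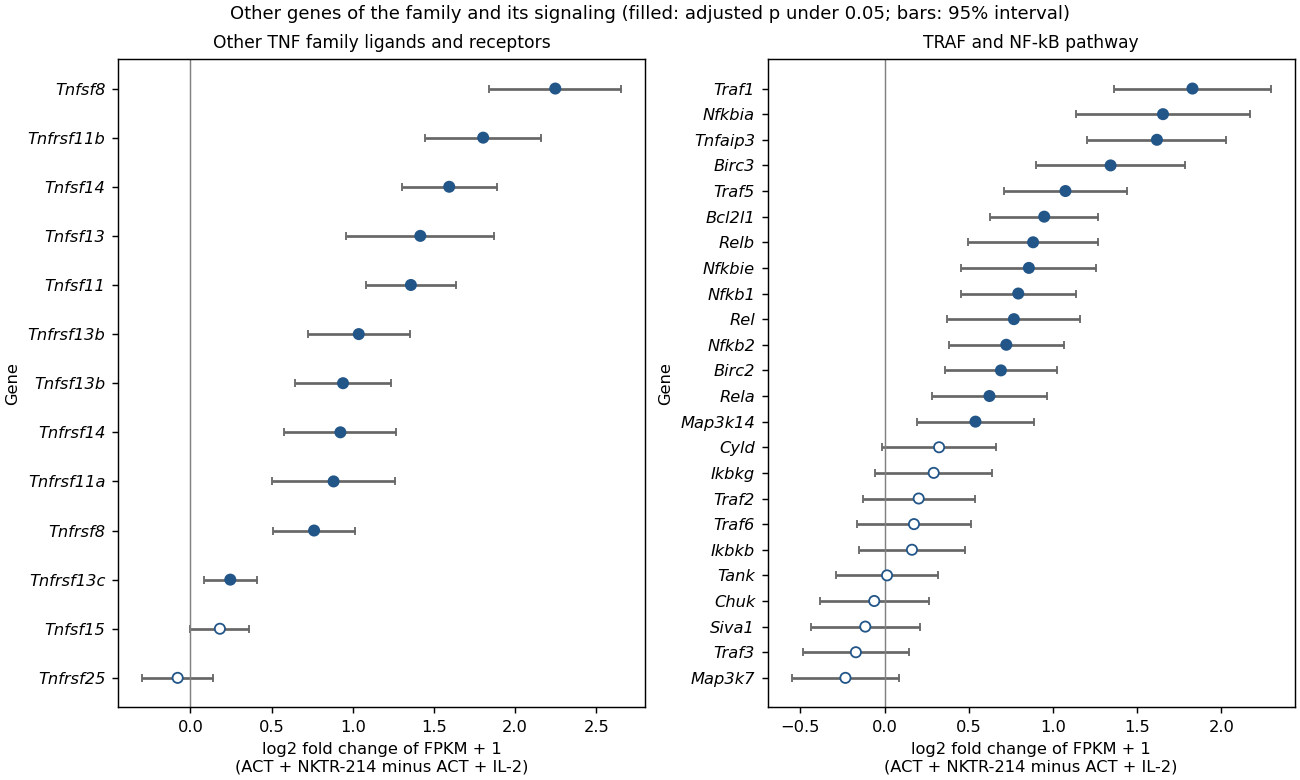
The log2 fold change of FPKM + 1, ACT + NKTR-214 minus ACT + IL-2 (horizontal axes), with 95% intervals, for 13 other TNF family genes (left) and 24 TRAF and NF-kB genes (right); filled points have an adjusted p under 0.05 (limma). Filled points lie right of 0 in both panels, led by *Tnfsf8* at 2.25 and *Traf1* at 1.83.

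Genes whose levels ran most closely with each receptor were listed as a description, by Pearson r of log2(FPKM + 1) over the 6 tumors among 11558 genes, where the treatment difference alone makes high r common. For *Tnfrsf18* they were *Cdkn2a* (0.9998), *Il12rb2* (0.9996) and *Itpr3* (0.9991), and for *Tnfrsf4* they were *Hist1h1c*, *Jaml* and *Mcoln2* (0.999 each). For *Cd27* they were *Bcl2l11*, *Ltb* and *Btla* (0.999 or above), of which *Ltb* is itself a TNF family ligand. For *Tnfrsf9* they were *Trf* (0.997), *Sil1* (0.996) and *Cadm4* (0.996). *Cd40*, whose groups overlapped, ran closest to *Rnd3* (0.996), *Tomm5* (0.986) and *Lpar1* (0.981).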

How the data were processed

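RNA was extracted from 6 whole tumors (3 per treatment, grouped by the labels) and sequenced as 50-base single-end reads. Per the submitters' processing notes the authors used HISAT2 2.0.4 and HTSeq on GRCm38, and they deposited FPKM per gene symbol to 4 decimals (21358 entries, 0 columns of other samples). The annotation and strand setting of the counting were not given in the sources used here, and FPKM shifts when abundant genes change, so other scalings were tried.

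The values were tested as log2(FPKM + 1) with limma 3.58.1 in R 4.3.3 (eBayes with an intensity trend, mean FPKM 0.1 or more), and p-values were adjusted by Benjamini-Hochberg over the 14172 genes left. A log2 fold change is on this scale and understates low genes. Nothing in the labels says more of the replicates than their number, so p-values concern these tumors only. The limma p-values pool the spread of a gene between tumors with that of other genes at its level. In the main fit the other genes had a weight of 11.4 prior degrees of freedom. Receptor and ligand, and member and T cell marker, were compared within tumors by two-sided exact permutation tests (scipy 1.17.1), where 0.1 is the smallest p.

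Since 1 read is worth a fixed FPKM per gene and library, relative depth was read from the steps of 2005 genes and the members' whole reads were recovered, with a largest distance of 0.045 from a whole number. Intervals on reads cover counting error only. The procedures were tested on simulated data. Positions are from GENCODE vM21 (GRCm38) and promoter windows from RefSeq sequences, used for 5 of 10 members.

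All 10 members, the leading genes of the family and signaling lists that passed, further listed genes with their values, markers where a result turned on them, and the 3 genes closest to each receptor were named. The members and lists were chosen with earlier results of these data known. Alternatives were an added value of 0.1, other FPKM minimums, 75th percentile and quantile scaling, no intensity trend, a replicate block, leaving out each tumor and, chosen after seeing the data, the own variance of each gene.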

Additional observations from a re-analysis of the deposited data

How the results depend on the processing

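Of 381 recomputed values 343 were labelled the same and 5 reversed. Single members had to keep their direction and side of the threshold, and counts had to stay within 1.5 times. Within-tumor differences made up 133 of the 343. They were judged by direction alone, since their exact permutation p could not fall below 0.1. The causes were not tested. Single members newly passed in 10 alternatives and no longer passed in 6, and counts of genes rose in 10 and fell in 7 by more than 1.5 times. With the own variance of each gene (limma without moderation) 2 members were higher in place of 6, 2 of the wider TNF family in place of 11, 0 of the TRAF and NF-kB genes in place of 14, and 101 genes were higher and 27 lower overall. One member, *Tnfsf18*, was called lower with 0.1 added, with no FPKM minimum and with either scaling. The 75th percentile and quantile scalings called 3709 and 4549 genes lower and 3 TRAF and NF-kB genes lower, and quantile normalization 1 wider family gene lower. Reversals were *Tnfsf9* (-0.009 and -0.020 with the scalings, -0.091 to 0.21 over left-out tumors, the lowest without ACT + IL-2 replicate 2) and the CD40 receptor minus ligand difference (-1.03 with 0.1 added, -0.03 to 0.43 over left-out tumors, the lowest without ACT + IL-2 replicate 3). Leaving out 1 tumor gave 5 to 7 members higher and 636 to 1996 genes lower, the highest without ACT + IL-2 replicate 2, the lowest without replicate 3 of that group, and 680 once ACT + NKTR-214 replicate 2 was left out. In 3 of these 6 fits (ACT + IL-2 replicate 1, or ACT + NKTR-214 replicate 2 or 3, left out) the prior degrees of freedom were infinite. Every gene there took the variance of its level, and its own spread did not enter the adjusted p-values. Equal replicate numbers marked different mice, and no pairing of tumors was given in the labels. Deviations from the group means correlated at -0.206, -0.067 and 0.396 for equal numbers and at -0.542 to 0.586 for unequal numbers. With 3 tumors per group these values are too few to decide whether tumors were paired. A replicate block gave 7 members higher, with *Cd40* added, and 3090 genes higher and 1227 lower among all genes. Depth limits *Cd70*, *Cd40lg*, *Tnfsf4* and *Tnfsf18*, which rest on 0 to 27 reads per tumor.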
